A study of Mus musculus with 18 samples.

Results

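The 9 genes described here make melanin or build the melanosome, the organelle that holds it: Tyr, Tyrp1, Dct, Pmel, Mlana, Oca2, Slc45a2, Slc24a5 and Gpr143. They were chosen by name, from their known roles, and each was found on exactly 1 line of each of 2 tables of normalized counts, which list 55333 and 55386 named genes with 54577 names in common. The tables hold polyA RNA sequencing of mouse retinal pigment epithelium (RPE), the pigmented layer behind the photoreceptors, taken on postnatal day 25, 1 h after light onset. The RPE was used directly, without treatment.

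The first table holds 6 C57BL/6 wild-type libraries (genotype C57BL/6J), 3 Tyro3-/-V1 libraries (an allele of the receptor tyrosine kinase gene Tyro3) and 3 Mertk-/-V2Tyro3-/-V2-labelled libraries (alleles of Tyro3 and of its relative Mertk, whose product acts in the uptake of shed photoreceptor outer segments). The second table, normalized separately, holds 3 wild-type libraries of the 129 strain (WT129) and 3 Itgb5-/- libraries, which lack the beta 5 integrin chain that binds outer segments. The labels call the samples biological replicates. The 129 substrain and its alleles of the pigment genes, the nature of each mutant allele, the sex of the animals and the number pooled per library are not given in the sources used here.

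Depth ran from 14135502 to 30401422 reads per library. C57BL/6 replicates 1 to 3 and both mutant groups of the first table carry the mark 23 in their sample names, and C57BL/6 replicates 4 to 6 do not. Fold changes against C57BL/6 therefore rest on replicates 1 to 3, with the spread estimated from all 12 libraries of the table. Tyro3 had 3398 ± 514 normalized counts in C57BL/6 (SD, n = 6), 1292 ± 122 in Tyro3-/-V1 and 1705 ± 244 in the Mertk-/-V2Tyro3-/-V2-labelled libraries (SD, n = 3 each). Mertk had 3202 ± 455 in C57BL/6 and 3410 ± 631 in the Mertk-/-V2Tyro3-/-V2-labelled libraries, so the count over the whole Mertk gene was not lower under that label. Itgb5 had 3622 ± 588 in WT129 and 1199 ± 57.7 in Itgb5-/-. In these bulk samples, fewer RPE cells and less of a transcript per cell cannot be told apart.

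Melanin is made inside melanosomes from tyrosine by a short chain of oxidations, and in the mouse RPE most of it is laid down before and shortly after birth and then kept for life. The product of Pmel first forms fibrils in the immature organelle, the 3 enzymes Tyr, Tyrp1 and Dct then deposit pigment on them, and ion transporters set the acidity and ion content in which tyrosinase works. Loss of Tyr, Tyrp1, Oca2, Slc45a2 or Gpr143 function causes forms of albinism in people, and several of the mouse genes were first known as coat colour loci.

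The members of this pathway are classic targets of the transcription factor MITF, which binds E-boxes of the form CATGTG, in pigment genes often as the longer M-box TCATGTG. RefSeq promoter windows on GRCm38.p6, from 250 bases before to 50 bases after the transcription start, were matched by symbol to 5 of the 9 genes. An M-box on either strand stood in 4 of these 5 windows, beside 3.78% of all 32817 windows. The shorter CATGTG, which every M-box contains, stood in 5 of the 5, beside 14.2% of all windows. TAATCC, a core letter sequence bound by OTX2, stood in 2 of the 5, those of Tyrp1 and Dct, beside 7.06% of all windows. The stretches around the M-boxes are printed 5′ to 3′ on the strand of each gene, with the M-box in capitals, to show how the enzyme genes and Slc24a5 share it; Oca2 is shown for contrast, with none in capitals.

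Tyr, minus strand, chr7:87493513-87493574: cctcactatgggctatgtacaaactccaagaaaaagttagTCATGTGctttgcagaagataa
Tyrp1, plus strand, chr4:80834156-80834182: ggggagggagTCATGTGctgcctagta
Dct, minus strand, chr14:118052351-118052496: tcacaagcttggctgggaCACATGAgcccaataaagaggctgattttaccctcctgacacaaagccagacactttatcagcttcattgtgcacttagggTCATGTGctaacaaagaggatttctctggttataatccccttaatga
Slc24a5, plus strand, chr2:125068074-125068123: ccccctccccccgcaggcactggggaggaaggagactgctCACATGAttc
Oca2, plus strand, chr7:56239679-56239758: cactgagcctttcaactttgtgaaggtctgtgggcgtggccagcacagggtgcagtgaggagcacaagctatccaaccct

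Counted from the RefSeq start, the M-box of Tyr begins at base -22, that of Tyrp1 at -47 and that of Slc24a5 at -13, the last on the opposite strand. Dct has 2, at -151 and, on the opposite strand, at -232. GENCODE M21 places the start of Tyrp1 upstream of the RefSeq start, so its M-box lies within the GENCODE gene. The CATGTG of Oca2 begins at -186, upstream of the bases printed. These matches describe the letters in the windows and not binding.

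Within C57BL/6 the levels spanned a wide range. In CPM (read counts scaled to an equal library total) per kilobase of annotated exon, Dct was highest at 619 ± 92.5 (SD, n = 6), followed by Pmel at 474, Tyrp1 at 360, Mlana at 152, Tyr at 67.5, Oca2 at 44.4, Slc24a5 at 36.5, Gpr143 at 23.5 and Slc45a2 at 11.3. The ranges over the 6 libraries overlapped between Dct and Pmel and between Pmel and Tyrp1, and every lower neighbouring pair in that order stood apart. Tyr, the rate-limiting enzyme, was thus present at a lower level per length than both enzymes that act after it. In WT129 the order per length was Dct, Pmel, Tyrp1, Mlana, Slc24a5, Oca2, Tyr, Gpr143 and Slc45a2, with Tyr below Slc24a5 and Oca2 and their ranges apart. Without division by length Tyr was above both in WT129, at 178 to 190 CPM. Slc24a5 had 144 to 176 CPM there and Oca2 124 to 168. In Itgb5-/- the order per length was Dct, Tyrp1, Pmel, Slc24a5, Mlana, Oca2, Tyr, Gpr143 and Slc45a2. Together the 9 genes took 0.673% ± 0.107 of the reads in C57BL/6 (SD, n = 6), 0.659% ± 0.106 in Tyro3-/-V1, 0.821% ± 0.169 in the Mertk-/-V2Tyro3-/-V2-labelled libraries, 0.414% ± 0.044 in WT129 and 0.393% ± 0.0166 in Itgb5-/- (SD, n = 3 each). Dct alone made up 54.3% ± 2.61 of the reads of the 9 genes in C57BL/6 (SD, n = 6).

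**Figure D1:**
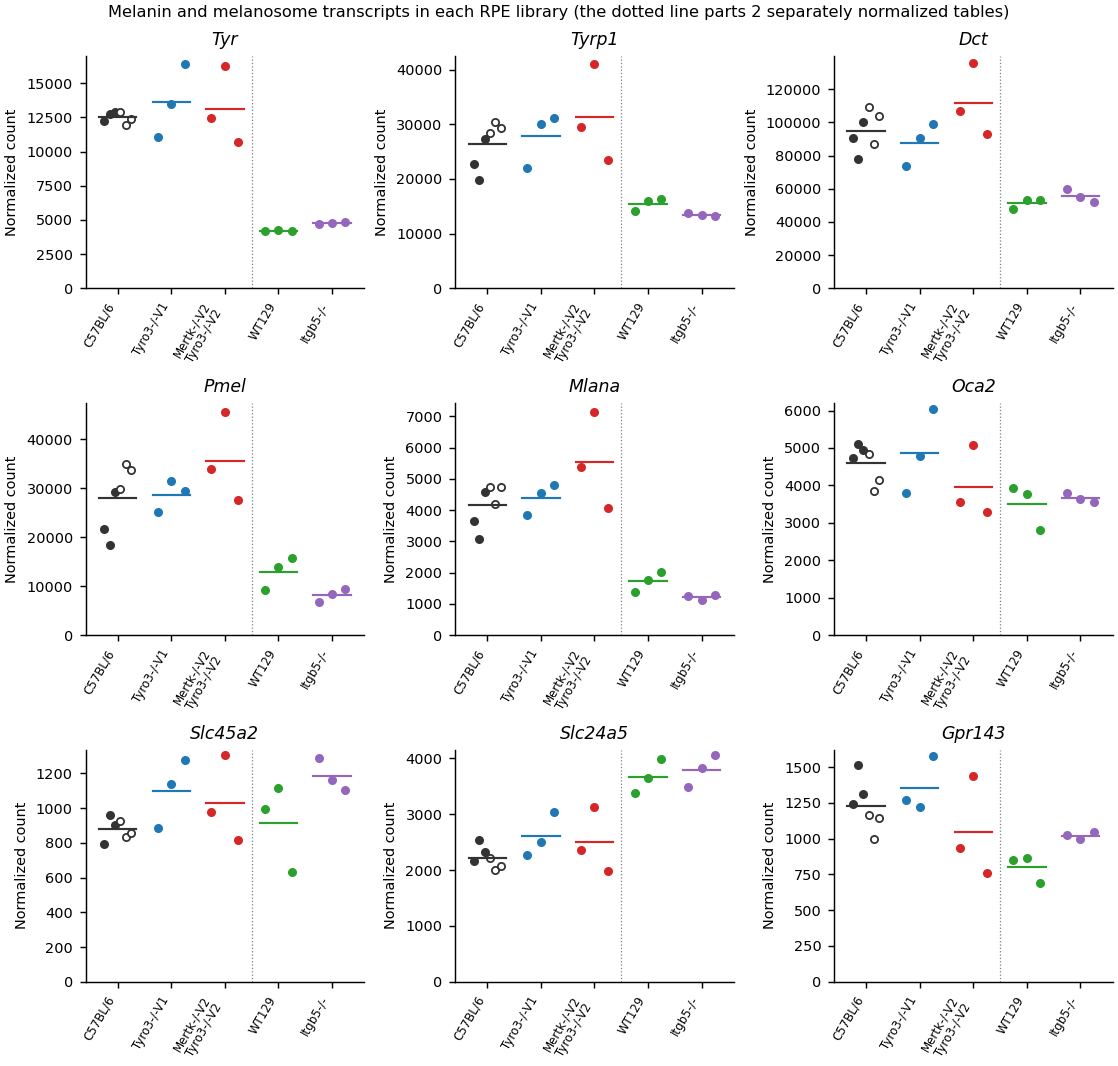
Normalized counts of the 9 genes (vertical axes, from 0) in each of the 18 libraries, grouped along the horizontal axes. Each point is a library, bars are group means, open points are C57BL/6 replicates 4 to 6, and the dotted line parts the 2 separately normalized tables; replicate 2 of the Mertk-/-V2Tyro3-/-V2-labelled libraries is the highest of its group in all 9 panels.

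The first question is whether loss of the uptake receptors moved these transcripts. No member passed the test in any comparison. Against C57BL/6, 0 of the 9 passed in the Mertk-/-V2Tyro3-/-V2-labelled libraries by limma, where 0.523% of the 19711 genes tested did (103 genes), and 0 passed in Tyro3-/-V1, where 0.0457% did (9 genes). Between these mutant groups 0 of the 9 passed, beside 0.137% of all genes, and 0 passed for Itgb5-/- against WT129, beside 0.0375% of 18648 genes. At an unadjusted p under 0.05 there were 2, 0, 0 and 3 members in these comparisons in that order, beside 21.9%, 6.71%, 13.8% and 8.28% of all genes tested.

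Both count-based tools run on the recovered reads gave the same count of 0 of 9 in every comparison. edgeR called 0.614%, 0.0457%, 0.178% and 0.0268% of all genes in the comparisons in that order, and DESeq2 10.4%, 0.721%, 4.26% and 2.3%. The lowest adjusted p of any member was 0.0507, for Pmel by DESeq2 in the Mertk-/-V2Tyro3-/-V2-labelled libraries against C57BL/6. The 95% intervals of the log2 fold change lay within 1 of 0, that is within a 2-fold change either way, for 8, 9, 9 and 8 of the 9 genes in these comparisons, so smaller differences remain possible.

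Of the 3 melanin enzymes Tyr varied least and Dct was the most abundant in C57BL/6. Tyr, which oxidises tyrosine to dopaquinone, had between 11916 and 12875 normalized counts in C57BL/6, with a median of 12569. It had 11048, 13502 and 16370 in Tyro3-/-V1 and 12477, 16242 and 10681 in the Mertk-/-V2Tyro3-/-V2-labelled libraries. The 6 C57BL/6 libraries had a coefficient of variation of 3.09%, and each of these mutant groups had values both above and below their range. The log2 fold change of Tyr in the Mertk-/-V2Tyro3-/-V2-labelled libraries against C57BL/6 was 0.04 with a 95% interval of -0.32 to 0.40, and that of Tyro3-/-V1 was 0.10 with an interval of -0.27 to 0.46. Tyr had 4182, 4275 and 4175 normalized counts in WT129 and 4674, 4756 and 4863 in Itgb5-/-. Every Itgb5-/- library was above every WT129 library, by 0.18 on the log2 scale with an interval of -0.05 to 0.41 and a limma adjusted p of 0.675.

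Tyrp1, which in the mouse oxidises a late indole intermediate, ran from 19814 to 30388 normalized counts in C57BL/6 with a median of 27802. It had 22099, 30139 and 31149 in Tyro3-/-V1 and 29447, 41094 and 23405 in the Mertk-/-V2Tyro3-/-V2-labelled libraries, where the groups overlapped and the log2 fold change was 0.40 (interval -0.05 to 0.86), or 0.19 without replicate 2 of the labelled libraries. Tyrp1 had 14185, 15944 and 16351 in WT129 and 13757, 13382 and 13315 in Itgb5-/-, each Itgb5-/- library lower, by -0.20 on the log2 scale (limma adjusted p = 0.698). Dct, dopachrome tautomerase, ran from 78180 to 109058 in C57BL/6 with a median of 95498. It had 73821, 90532 and 98928 in Tyro3-/-V1 and 107074, 135475 and 92992 in the Mertk-/-V2Tyro3-/-V2-labelled libraries, overlapping C57BL/6 with a log2 fold change of 0.31 (interval -0.08 to 0.70), or 0.16 without that replicate. Dct in WT129 (47513, 53442 and 53347) and Itgb5-/- (59621, 55201 and 51970) also overlapped.

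The melanosome matrix genes had the largest fold changes of the 9 in the Mertk-/-V2Tyro3-/-V2-labelled libraries against C57BL/6 and in Itgb5-/- against WT129, and neither passed. Pmel, the fibril protein, ran from 18383 to 34904 normalized counts in C57BL/6 with a median of 29584, the widest spread of the 9 genes there at a coefficient of variation of 23.6%. It had 25115, 31456 and 29458 in Tyro3-/-V1 and 33829, 45476 and 27559 in the Mertk-/-V2Tyro3-/-V2-labelled libraries. The ranges of these libraries and of C57BL/6 overlapped, and only replicate 2 lay above every C57BL/6 library. The log2 fold change was 0.62 with an SE of 0.20, an interval of 0.17 to 1.07 and a limma adjusted p of 0.146. Leaving out the term for the mark, so that all 6 C57BL/6 libraries are the control, gave 0.36. In Itgb5-/- Pmel had 6761, 8336 and 9370, beside 9195, 13919 and 15678 in WT129. Only the top Itgb5-/- library reached the lowest WT129 library, and the log2 fold change was -0.64 with an interval of -1.16 to -0.12 and a limma adjusted p of 0.518.

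Mlana, a melanosome membrane protein that binds the Pmel product, had the same signs as Pmel in both of those comparisons. It ran from 3064 to 4753 normalized counts in C57BL/6 with a median of 4393, and had 3835, 4542 and 4809 in Tyro3-/-V1 and 5386, 7134 and 4054 in the Mertk-/-V2Tyro3-/-V2-labelled libraries. The last of these overlapped C57BL/6, and the log2 fold change was 0.54 with an interval of 0.09 to 0.98 and a limma adjusted p of 0.177, or 0.33 without replicate 2. In WT129 Mlana had 1377, 1767 and 2010 normalized counts and in Itgb5-/- 1250, 1107 and 1276. These groups did not overlap, and the log2 fold change was -0.49 with an interval of -0.85 to -0.12 and a limma adjusted p of 0.462.

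Rod photoreceptor transcripts moved beside these matrix values. The summed level of 14 rod markers was 8840 to 21506 CPM in WT129 and 2929 to 5975 in Itgb5-/-. All 14 were lower in every Itgb5-/- library than in every WT129 library, beside 7.68% of all genes tested, and 0 were called. With a rod score as covariate, the log2 fold change of Pmel in Itgb5-/- was -0.11 and that of Mlana -0.37, and those of Slc45a2 and Gpr143 were 0.62 and 0.49. The rod score itself differed between Itgb5-/- and WT129, so the covariate and the genotype cannot be told apart in that fit. In the Mertk-/-V2Tyro3-/-V2-labelled libraries the rod sum was 3928 to 11595, beside 1385 to 15791 in C57BL/6, with all 14 positive in log2 fold change and 0 called, and the same covariate gave 0.68 for Pmel and 0.66 for Mlana. The part of the rod transcripts in either difference was not tested.

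Oca2 and Gpr143 had the opposite sign to the matrix genes in both of those comparisons. The RPE score covariate ended this for both genes in the first comparison and for Oca2 in the second, where leaving out WT129 replicate 3 also gave Oca2 -0.07. Oca2, a melanosomal anion channel, ran from 3848 to 5107 normalized counts in C57BL/6 with a median of 4785. It had 3784, 4778 and 6045 in Tyro3-/-V1 and 3543, 5069 and 3280 in the Mertk-/-V2Tyro3-/-V2-labelled libraries. Of the latter, 2 of 3 lay below all of C57BL/6 and the log2 fold change was -0.34 (interval -0.76 to 0.08), between -0.53 without replicate 2 and -0.22 without replicate 3. Oca2 in WT129 (3925, 3770 and 2817) and Itgb5-/- (3785, 3634 and 3551) overlapped. Slc45a2, a melanosomal sugar and proton transporter and the scarcest of the 9 per length in each group, ran from 794 to 959 in C57BL/6 and from 633 to 1303 over all other libraries. Its largest difference was 0.41 in Itgb5-/- against WT129 (interval -0.09 to 0.90), where the groups overlapped, and 0.16 without WT129 replicate 3.

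Slc24a5, a potassium-dependent sodium and calcium exchanger, ran from 1997 to 2544 normalized counts in C57BL/6 with a median of 2191. It had 2278, 2499 and 3033 in Tyro3-/-V1, 2363, 3138 and 1988 in the Mertk-/-V2Tyro3-/-V2-labelled libraries, and similar values in WT129 (3383, 3646 and 3983) and Itgb5-/- (3497, 3831 and 4057). All groups within a table overlapped, with log2 fold changes between -0.08 and 0.14 in the mutant comparisons. Slc24a5 lies on chromosome 2, 5.25 Mb from Tyro3 and 3.61 Mb from Mertk. It shares 921 exonic bases with Myef2 on the opposite strand, and whether reads were counted by strand is not given in the sources used here.

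Gpr143, an X-linked receptor of the melanosome membrane that limits melanosome size, ran from 997 to 1511 normalized counts in C57BL/6 with a median of 1205. It had 1268, 1218 and 1578 in Tyro3-/-V1 and 934, 1438 and 757 in the Mertk-/-V2Tyro3-/-V2-labelled libraries, 2 of which were below every C57BL/6 library. The log2 fold change was -0.43 with an interval of -0.87 to 0.02, between -0.68 without replicate 2 and -0.22 without replicate 3. In Itgb5-/- all libraries (1025, 994 and 1043) were above all WT129 libraries (854, 866 and 690), by 0.35 on the log2 scale with an interval of 0.06 to 0.65 and a limma adjusted p of 0.526. WT129 replicate 3 and Itgb5-/- replicates 2 and 3 had high Xist, between 22838 and 26722 normalized counts, and a term for these libraries gave 0.41 for Gpr143. The members' median log2 fold change was 0.20 in the Mertk-/-V2Tyro3-/-V2-labelled libraries against C57BL/6, 0.14 in Tyro3-/-V1, -0.06 between these mutant groups and 0.08 in Itgb5-/-, beside 0.01, -0.00, -0.01 and 0.04 over all genes tested. The comparisons within the first table share C57BL/6 or mutant libraries.

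**Figure D2:**
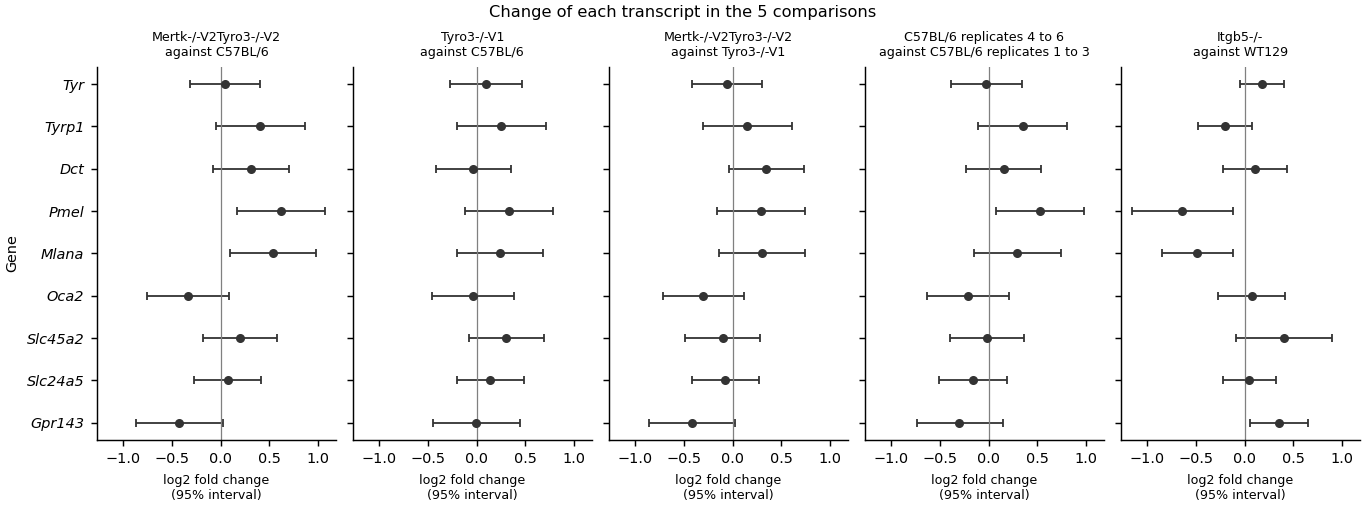
Log2 fold change of each gene (horizontal axes) with its 95% interval in 5 comparisons. The interval of Pmel leaves 0 in 3 comparisons, that of Mlana in 2 and that of Gpr143 in 1, and none of the 45 values passed the adjusted threshold.

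Groups that did not overlap were counted as a description. In the Mertk-/-V2Tyro3-/-V2-labelled libraries against all 6 C57BL/6 libraries 0 of the 9 genes stood apart, beside 5.83% of all genes, in Tyro3-/-V1 0 of 9 beside 4.05%, and between these mutant groups 0 of 9 beside 18.2%. In Itgb5-/- against WT129 it was 4 of 9, beside 15.4% of all genes. Tyr and Gpr143 were the higher ones and Tyrp1 and Mlana the lower ones.

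The C57BL/6 libraries were also compared among themselves. C57BL/6 replicates 4 to 6 against replicates 1 to 3 had log2 differences of 0.53 for Pmel (interval 0.08 to 0.98), 0.35 for Tyrp1, 0.29 for Mlana and -0.30 for Gpr143. Pmel and Tyrp1 were higher and Gpr143 lower in every one of replicates 4 to 6, so 3 of 9 genes stood apart, beside 35.2% of all genes. By limma 0 of 9 passed, beside 0.167% of all genes, with edgeR calling 0.203% and DESeq2 4.81%. Of these values, 0.53 for Pmel in wild-type libraries is close to the 0.62 seen in the Mertk-/-V2Tyro3-/-V2-labelled libraries. Both values are measured against C57BL/6 replicates 1 to 3, so they are not independent of each other. The rod markers summed to 1385 to 4966 CPM in replicates 1 to 3 and 5681 to 15791 in replicates 4 to 6, and their part in the difference was not tested.

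By CPM, most of these transcripts had different levels in the WT129 and C57BL/6 libraries. Because the tables were normalized separately, the strains were set side by side as CPM of recovered reads, without a test, and strain and table cannot be told apart. Of the 9 genes 5 were lower in every WT129 library than in every C57BL/6 library, beside 12.9% of the 18706 genes compared, and 1 was higher, beside 12.1%. The median log2 ratio of WT129 to C57BL/6 was -0.59 over the 9 genes and -0.00 over all genes. Relative to other RPE transcripts the groups were less distinct. Per 100 reads of 16 RPE markers, the 9 genes had 11.3, 14.5 and 19.7 reads in WT129 and 12.5 to 27.1 in C57BL/6, which overlapped. Per 100 Rpe65 reads, Dct, Pmel and Oca2 overlapped between the groups. Tyr (5.02 to 7.26 against 12.1 to 20.4) and Gpr143 (1.02 to 1.2 against 1.44 to 1.71) stayed apart.

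Tyr stood furthest apart. It had 178, 190 and 184 CPM in WT129 and 434 to 509 in C57BL/6 with no overlap, a 2.61-fold difference of the means of 184 ± 6.43 (SD, n = 3) and 480 ± 27.2 (SD, n = 6). Only 4.73% of all genes had a log2 ratio lower than that of Tyr, -1.38. Mlana was 2.13-fold lower in WT129 (58.5, 78.7 and 88.6, against 112 to 195), Dct 1.62-fold lower (2017, 2381 and 2352, against 2848 to 4263) and Tyrp1 1.5-fold lower (602, 710 and 721, against 722 to 1270). The highest WT129 value of Tyrp1 was just under the lowest of C57BL/6. Gpr143 was 1.34-fold lower (36.2, 38.6 and 30.4, against 41.7 to 55.1).

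Among the genes that stood apart, Slc24a5 was the exception in direction. It had 144, 162 and 176 CPM in WT129 and 77.1 to 92.7 in C57BL/6, a 1.89-fold higher mean. Myef2, which shares exonic bases with it, had 37.8 to 56.3 in WT129 and 38.6 to 62 in C57BL/6, overlapping. Pmel overlapped between the strains (390, 620 and 691 against 670 to 1458), as did Oca2 (167, 168 and 124 against 161 to 186) and Slc45a2 (42.3, 49.8 and 27.9 against 28.2 to 35.4). Slc45a2, with a mean of 33.7 CPM in C57BL/6, also had a higher mean of 40 in WT129. Itgb5-/- libraries, of the same table, had 201, 195 and 209 CPM of Tyr and 150, 157 and 175 of Slc24a5, also apart from C57BL/6. Other genes did not keep their place: Gpr143, at 40.8 to 44.9 CPM in Itgb5-/-, overlapped C57BL/6, while Pmel, at 291 to 403, was below it and Slc45a2, at 47.4 to 55.3, above it.

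**Figure D3:**
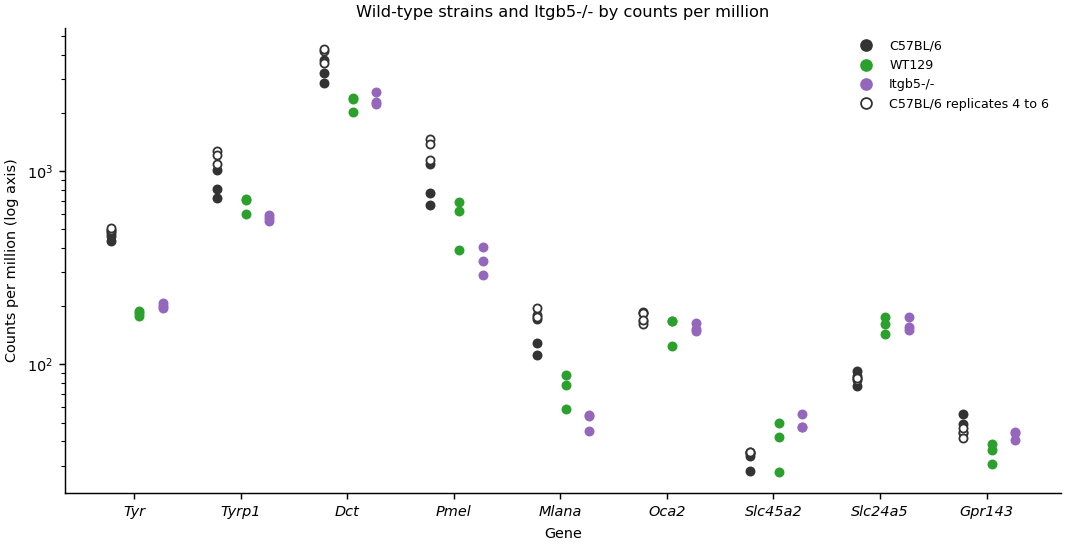
CPM of each gene on a log axis in the C57BL/6, WT129 and Itgb5-/- libraries, each point a library and open points C57BL/6 replicates 4 to 6. Tyr lies between 178 and 209 in all 6 libraries of the second table and at or above 434 in all 6 C57BL/6 libraries, and Slc24a5 lies the other way.

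A ratio of 2 genes within a library does not depend on any scaling. These ratios were chosen after the values had been seen and carry no test. There were 0.168 to 0.2 Slc24a5 reads per Tyr read in C57BL/6, 0.185 to 0.206 in Tyro3-/-V1 and 0.186 to 0.193 in the Mertk-/-V2Tyro3-/-V2-labelled libraries. In WT129 there were 0.809, 0.853 and 0.954, and in Itgb5-/- 0.748, 0.805 and 0.834. The ratio separated the tables fully and moved little within them. Pmel per Oca2 read behaved otherwise: it spread from 3.6 to 9.07 within C57BL/6, and was 9.55, 8.97 and 8.4 in the Mertk-/-V2Tyro3-/-V2-labelled libraries, 6.64, 6.58 and 4.87 in Tyro3-/-V1, 2.34, 3.69 and 5.57 in WT129 and 1.79, 2.29 and 2.64 in Itgb5-/-. C57BL/6 replicates 4 to 6 had 6.17, 9.07 and 8.11, of which only 9.07 lay within the range of the Mertk-/-V2Tyro3-/-V2-labelled libraries, and replicates 1 to 3 had 4.59, 3.6 and 5.92.

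**Figure D4:**
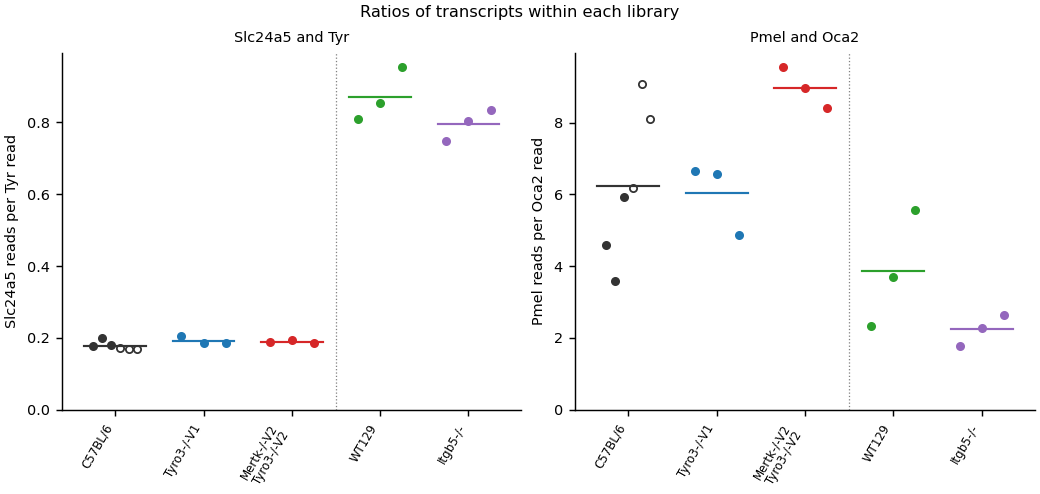
Reads of Slc24a5 per Tyr read and of Pmel per Oca2 read (vertical axes, from 0) in each library, with bars for group means and open points for C57BL/6 replicates 4 to 6. The left ratio stays at or below 0.206 in the 12 libraries of the first table and at or above 0.748 in the 6 of the second, and the right ratio spreads within C57BL/6.

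The 9 genes were also set against other RPE transcripts in the Mertk-/-V2Tyro3-/-V2-labelled libraries, without a test of the difference. Of 16 RPE markers, 15 had negative log2 fold changes against C57BL/6 and 2 passed the test. Their log2 fold changes ran from -1.53 to 0.18, a range that also holds the -0.34 of Oca2 and the -0.43 of Gpr143. Rpe65, the retinoid isomerase of the visual cycle, fell by 1.53 on the log2 scale (interval -2.02 to -1.03, limma adjusted p = 0.0268), and Enpp2, the secreted enzyme autotaxin, fell by 1.24 (limma adjusted p = 0.0348). The call of Rpe65 was kept in 17 of 27 alternative settings and that of Enpp2 in 14. Of the libraries left out in turn, C57BL/6 replicates 1, 2, 3 and 6, replicates 1 and 3 of the Mertk-/-V2Tyro3-/-V2-labelled libraries and Tyro3-/-V1 replicate 2 each ended the call of Rpe65, whose highest adjusted p over all 27 settings was 0.175.

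Per 100 reads of the RPE markers, the 9 melanosome genes had 39.5, 37.5 and 37.8 reads in the Mertk-/-V2Tyro3-/-V2-labelled libraries. They had 12.5 to 27.1 in C57BL/6, with a median of 21.1, and 17.6, 20 and 16.6 in Tyro3-/-V1. Every Mertk-/-V2Tyro3-/-V2-labelled library was above all others of the table. Both parts of the ratio can be seen in the CPM: the RPE markers summed to 18061 to 26954 in these libraries and 27137 to 41406 in C57BL/6, while the 9 genes took 0.682% to 1.01% and 0.518% to 0.789% of all reads. Dct made up 54.5% of the reads of the 9 genes in these libraries, so the ratio is mostly that of Dct. Tyr per 100 Rpe65 reads was 42.1, 37 and 42.3 against 12.1 to 20.4. Rpe65 has the lowest fold change of the 16 markers and was chosen after that was seen, so this ratio is wider than one with most other markers, such as Lrat at -0.35, would be.

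With an RPE marker score as a covariate, all 9 log2 fold changes against C57BL/6 were positive, from 0.39 for Gpr143 to 1.05 for Mlana with a median of 0.81. The lowest adjusted p was 0.131 and 0 of 9 passed. The same covariate gave a median of 0.17 in Tyro3-/-V1. The summed level of 7 lens markers was 3137 to 15924 CPM in these libraries, beside 373 to 3070 CPM for C57BL/6 and 603 to 4132 CPM for Tyro3-/-V1, and its part in these differences was not tested. The score itself differed between these groups, so the covariate and the genotype cannot be told apart in that fit.

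**Figure D5:**
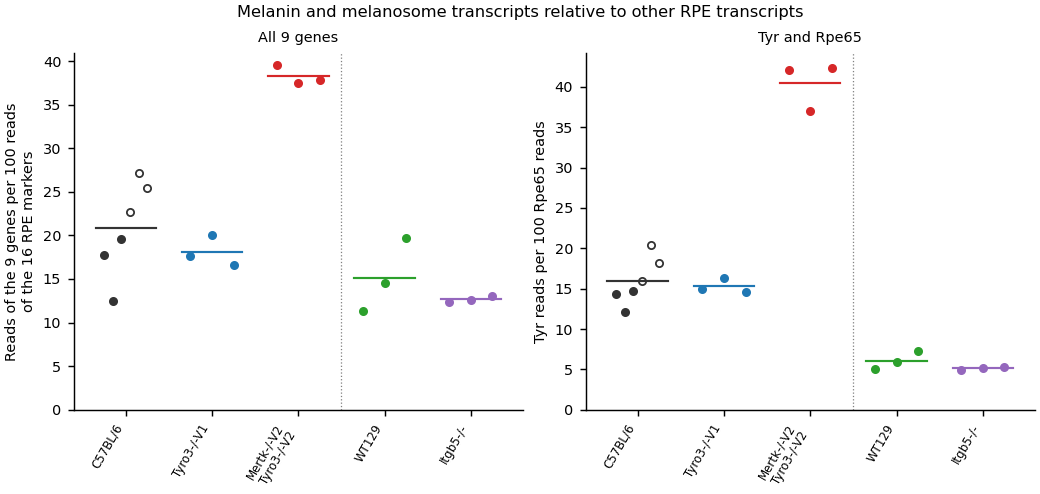
Reads of the 9 genes per 100 reads of 16 RPE markers (left) and of Tyr per 100 Rpe65 reads (right) in each library, with bars for group means and open points for C57BL/6 replicates 4 to 6. The 3 Mertk-/-V2Tyro3-/-V2-labelled libraries lie between 37 and 42.3 in both panels, above all other libraries.

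The 9 genes deviated together in several mutant libraries of the first table. In replicate 2 of the Mertk-/-V2Tyro3-/-V2-labelled libraries all 9 were above their group mean, by a median of 0.38 on the log2 scale, and in replicate 3 all 9 were below it, by -0.31. In Tyro3-/-V1 all 9 were above it in replicate 3 (0.23) and below it in replicate 1 (-0.24). The 16 RPE markers gave the same order of libraries, so this was not particular to the 9 genes. Their mean log2 normalized count was 13.62, 14.02 and 13.39 in replicates 1 to 3 of the Mertk-/-V2Tyro3-/-V2-labelled libraries. In Tyro3-/-V1 it was 14.21, 14.34 and 14.66. In C57BL/6 the members mostly went both ways: in replicate 2 their deviations ran from -0.57 to 0.31 with 5 above and 4 below, in replicate 5 from -0.29 to 0.36 with 3 above and 6 below, and only replicate 3 had all 9 above. The 5 genes outside the set whose standardized profile over the 12 libraries lay nearest to the mean profile of the 9 were Mitf, Dpp4, Serpinh1, Aspa and Zfp133-ps, with root mean square differences of 0.308, 0.34, 0.357, 0.371 and 0.409 SD units. The median over 14444 genes was 1.43, and the members themselves lay 0.308 (Tyr) to 0.942 (Gpr143) away.

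Mitf had 2435 ± 128 normalized counts in C57BL/6 (SD, n = 6), and 2757 ± 595 in Tyro3-/-V1 and 2582 ± 621 in the Mertk-/-V2Tyro3-/-V2-labelled libraries (SD, n = 3 each). Its log2 fold changes against C57BL/6 were 0.14 and 0.04, with limma adjusted p of 0.967 and 0.916. In the second table the 9 genes had no common profile: they lay 0.852 to 1.46 from their own mean, beside a median of 1.39 over 14524 genes. The 4 nearest genes there, over 6 libraries, were Pcdhb5, Rabl6, Slc20a1 and Gm2115, at 0.0734 to 0.217.

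Of 38 further genes for building and moving melanosomes, 38 were tested and 1 passed in any of the 4 mutant comparisons. Bloc1s6, a subunit of the BLOC-1 complex that sorts cargo to melanosomes, was lower in the Mertk-/-V2Tyro3-/-V2-labelled libraries (849, 825 and 703 normalized counts) than in Tyro3-/-V1 (1189, 1200 and 1214). It fell by 0.60 on the log2 scale, with an SE of 0.09 and a limma adjusted p of 0.0412. C57BL/6 had 727 to 910, so the Tyro3-/-V1 libraries were the ones that stood apart, at 0.46 above C57BL/6 with a limma adjusted p of 0.285. Bloc1s6 lies on chromosome 2, 2.92 Mb from Tyro3. The call was kept in 9 of 27 alternative settings. Leaving out any library but C57BL/6 replicate 4 ended it, with adjusted p up to 0.207 in those fits. The highest adjusted p over all 27 settings was 0.779.

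No other gene of that list passed. The smallest p against C57BL/6 in the Mertk-/-V2Tyro3-/-V2-labelled libraries was that of Kif13a, a kinesin that carries melanosome cargo, with a log2 fold change of -0.35 and a limma adjusted p of 0.0632. In Itgb5-/- it was that of Mlph, which links melanosomes to myosin, with -0.56 and 0.256. The medians over the 38 genes were -0.10, -0.03, -0.06 and 0.00 in the 4 comparisons. Of 20 regulators of pigment genes, the first table let 19 be tested and the second 18, and 0 passed. Ednrb, an endothelin receptor of the melanocyte lineage, had the smallest p in both mutant groups against C57BL/6, with log2 fold changes of 0.97 in the Mertk-/-V2Tyro3-/-V2-labelled libraries (limma adjusted p = 0.086) and 1.03 in Tyro3-/-V1 (limma adjusted p = 0.348). The smallest p between these mutant groups was that of Sox10, with -0.60 and 0.252, and in Itgb5-/- that of Pax6, with -0.57 and 0.52.

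By CPM, 9 of the 38 genes were lower in every WT129 library than in every C57BL/6 library and 3 were higher, beside 12.9% and 12.1% of all genes, with a median log2 ratio of -0.05. Chosen after the values were seen, Rab38, a small GTPase that delivers Tyr and Tyrp1 to melanosomes, had 17.2 ± 3.07 CPM in WT129 and 42.3 ± 9.17 in C57BL/6, 2.46-fold apart. Gpnmb, a relative of Pmel, had 608 ± 183 and 1191 ± 266 (SD, n = 3 and 6). Among the 19 regulators compared 2 were lower and 3 higher, shares near those of all genes, with Otx2, which controls RPE genes, at 424 ± 38.4 and 534 ± 45.9.

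Melanocytes of the choroid make the same pigment and could be present in the RPE preparations. The 9 markers of that lineage had unequal levels. Mc1r had 10 to 24 normalized counts in C57BL/6 and 31 to 63 in WT129, Pax3 13 to 33 and 1 to 19, and Foxd3 1 to 5 and 0 to 9. Kit had 1044 to 3196 normalized counts in C57BL/6 and 1612 to 2860 in WT129, Erbb3 545 to 3741 and 1234 to 3496, Ednrb 827 to 1291 and 1519 to 2300, and Cdh19 220 to 308 and 107 to 307. Sox10, which Schwann and other glia also express, was present, with 2044 to 3702 normalized counts in C57BL/6 and 3049 to 3545 in WT129. The 9 markers summed to 273 to 678 CPM in C57BL/6, 430 to 657 in Tyro3-/-V1, 239 to 366 in the Mertk-/-V2Tyro3-/-V2-labelled libraries, 2504 to 6014 in WT129 and 2728 to 8168 in Itgb5-/-. Against C57BL/6, 8 were tested, and 4 were positive and 4 negative in log2 fold change in the Mertk-/-V2Tyro3-/-V2-labelled libraries. There Ednrb was at 0.97 and Sox10 at -0.73 (limma adjusted p = 0.086 and 0.0922). In Tyro3-/-V1, 6 were positive and 2 negative. By CPM 3 of the 8 melanocyte markers compared were higher in every WT129 library than in every C57BL/6 library and 0 were lower, with a median log2 ratio of 0.49. The RPE markers summed to 22299 to 32191 in WT129 and 27137 to 41406 in C57BL/6. Whether melanocyte, glial or rod RNA takes part in the strain difference was not tested.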

How the data were processed

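RNA of RPE from 18 samples was sequenced as paired ends, per the labels' protocols, and the submitters' processing notes name STAR and DESeq2 with GRCm38 and mm10. Per the labels and values, the authors deposited a signal for each gene, the count divided by a size factor of the library, in 2 separately normalized tables. Each library was divided by the value of 1 read, which gave whole reads for 100.0% of values (tolerance 0.001 read); recovered totals were 14135502 to 30401422 reads. Lines without a gene name (240 and 35, at most 0.0203% of a total) were left out. Positions came from GENCODE M21 and promoters from RefSeq.

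The main test was limma 3.58.1 in R 4.3.3 on log2(normalized count + 1), with trend and robust shrinkage, on genes with at least 10 in 3 libraries; fold changes are on that scale. The first table's model had terms for group and for the mark 23, the second's for group only. Tests were two-sided, adjusted by Benjamini-Hochberg over all genes kept, threshold 0.05. The strain comparison kept genes with at least 0.5 CPM in 3 libraries. The steps were tested on simulated data.

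The members and lists were chosen with earlier results of these data known. Named genes are the 9 members, the targeted genes, from each list those past the threshold or the smallest p, and the 5 nearest profiles; exceptions are marked, and some genes under this rule or in these lists are not reported here. Alternatives were pseudocounts 0.5 and 10, no filter and a filter of 50 counts, TMM and CPM, edgeR 4.0.16 and DESeq2 1.42.0 on recovered reads, a replicate block, only the compared groups, no mark term, only marked libraries, rod and RPE scores as covariates, and leaving out each library. A term for libraries with high Xist and a fit without the libraries of highest and lowest rod score were added after seeing the data.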

Additional observations from a re-analysis of the deposited data

How the results depend on the processing

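In all 123 alternative fits over the 5 tested comparisons, 0 of the 9 genes passed the threshold, as in the tests reported. Of 1107 alternative fold changes of members, 50 had the other direction, all of genes with a reported size of at most 0.43 on the log2 scale and none called. The RPE score covariate turned Oca2 to 0.44 and Gpr143 to 0.39 in the Mertk-/-V2Tyro3-/-V2-labelled libraries against C57BL/6. The median of the members there ran from 0.02 to 0.81. Counts over all genes depended far more on the setting: in that comparison 103 genes became 0 to 142 on leaving out 1 library, 0 to 716 in other limma settings, 121 by edgeR and 1725 by DESeq2. In Tyro3-/-V1 9 became 3 to 9, 4 to 12, 9 and 131. Between the mutant groups 27 became 2 to 35, 2 to 394, 35 and 692. In Itgb5-/- 7 became 0 to 10, 0 to 19, 5 and 429, and between the C57BL/6 sets 33 became 4 to 91, 0 to 77, 40 and 911. The causes were not tested.

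The samples were not treated as paired, since not every same-numbered pair deviated together. Correlations of deviations were -0.21 to 0.56 for same-numbered and -0.69 to 0.33 for other pairs in the first table, and -0.12 to 0.03 and -0.04 to 0.11 in the second, so a partial sharing by number in the first table is possible. With the replicate block 0 members passed. By CPM 6 members were lower and 1 higher in WT129 after TMM scaling or against C57BL/6 replicates 4 to 6 only, and 5 and 1 against replicates 1 to 3 only. With 3 libraries a group, differences within the printed intervals were not resolved.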
